A study of Mus musculus with 4 samples.

Results

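The cell cycle inhibitors and the p53 axis were followed through 10 genes chosen by name. They were the Cip/Kip inhibitors Cdkn1a and Cdkn1b, the INK4 genes Cdkn2a, Cdkn2b, Cdkn2c and Cdkn2d, the pocket protein gene Rb1, and Trp53, Mdm2 and Ccng1. These were 10 of 21878 genes and 20 of 75959 mRNA transcripts in the deposited values, and the transcripts of a gene were summed. The cells were C3H10T1/2, a mouse mesenchymal stem cell line. The RNA left after removal of ribosomal RNA was read in 2 groups of 2, untreated (replicates 1 and 2) and 5-AZA at 20 μmol/L for 72 hours (replicates 101 and 102). The drug, 5-azacytidine, mimics cytidine, is built into nucleic acids and blocks DNA methyltransferases. The protocol lists 21 days in fresh medium after the drug, and it gives no separate culture time for the untreated samples, so treatment and time in culture cannot be told apart. The paper calls the replicates biological repeats, but the labels do not say that they were separate cultures, and the p-values may then measure only the spread between these samples.

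Cyclin-dependent kinases (CDKs) push cells from G1 into S phase by phosphorylating the Rb protein, which otherwise holds E2F factors in check. INK4 proteins bind CDK4 and CDK6, and Cip/Kip proteins bind cyclin-CDK complexes. The p53 protein, encoded by Trp53, switches on Cdkn1a and, in a feedback loop, Mdm2, whose product marks p53 for degradation. In muscle precursors p21, the product of Cdkn1a, is known for its part in the lasting exit from the cell cycle.

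Levels are given as FPKM, which scales fragments to transcript length and to the fragments sequenced. The numbers of reads are not kept in this unit, and the depth of each value is unknown. Between 10298 and 11124 genes reached 1 FPKM in a sample. Of the 10 markers of mesenchymal cells 9 reached 1 FPKM, and their summed level was 8320 and 8354 FPKM in the untreated samples and 4726 and 4612 FPKM in the 5-AZA samples. Most of that sum was S100a4 (5027, 5002, 2758 and 2355 FPKM in untreated 1 and 2 and 5-AZA 101 and 102) and Vim (2268, 2406, 1178 and 1380 FPKM). Other markers were higher in both 5-AZA samples, such as Thy1 (0.578, 0.785, 10.4 and 14.2 FPKM), which was called higher. Cd44, Eng and Pdgfrb were also higher in both but not called, Eng for a change below 2-fold (limma adjusted p = 0.0297). Nt5e (0, 0, 0.154 and 0.0824 FPKM) was too low to be tested. The 16 skeletal muscle markers summed to 1.80 and 1.46 FPKM in untreated and to 846 and 1295 FPKM in 5-AZA replicates 101 and 102, with Myf5 and Myf6 at 0. The 10 immune markers summed to 4.52 and 5.79 FPKM in untreated and 6.38 and 8.44 FPKM in 5-AZA samples, with Adgre1, Cd3e and Tyrobp among those at 0. Among them Cd68 was called higher, and the groups of Lyz2 overlapped. The 6 endothelial markers summed to 0.662 and 0.456 FPKM in untreated and 1.876 and 1.905 FPKM in 5-AZA samples. Tek and Cdh5 were called higher, and Vwf was lower in both 5-AZA samples but not called. The 6 epithelial markers summed to 0.967 and 0.876 FPKM in untreated and 19.9 and 25.5 FPKM in 5-AZA samples. Of these markers 2, Krt8 and Krt18, reached 1 FPKM. Krt8, Krt18 and Epcam were called higher, and Cdh1 was lower in both 5-AZA samples but not called. The groups of Krt14 overlapped, and Krt5 was too low to be tested. In bulk samples fewer cells of a type and less RNA per cell cannot be told apart.

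DNA methylation falls on cytosines that precede guanine (CpG), and the promoters of most of the 10 genes are rich in them. The RefSeq promoter table for GRCm38.p6 held 12 promoters of 300 bases, 250 before and 50 after the start site, for 9 of the genes, and Rb1 was not among them. They held between 2 and 45 CpG with a median of 20.0, against a median of 7 over all 32851 promoters in the table. The letters GGGCGG, searched on both strands, were found in 8 of the 12 and in 35.7% of all promoters. The 5 promoters shown here belong to the gene with the largest change and to the 2 genes listed at 0. Capitals mark CpG. No methylation was measured in these samples. For Cdkn2a the start used by p19Arf lies at chr4:89294570-89294869 on the minus strand with 45 CpG, and the start used by p16Ink4a at chr4:89282143-89282442 on the minus strand with 12. The Cdkn2b promoter lies at chr4:89310983-89311282 on the minus strand with 18 CpG. Cdkn1a has an upstream promoter at chr17:29090729-29091028 on the plus strand with 2 CpG and a downstream one at chr17:29093519-29093818 on the plus strand with 23.
Cdkn2a p19Arf promoter: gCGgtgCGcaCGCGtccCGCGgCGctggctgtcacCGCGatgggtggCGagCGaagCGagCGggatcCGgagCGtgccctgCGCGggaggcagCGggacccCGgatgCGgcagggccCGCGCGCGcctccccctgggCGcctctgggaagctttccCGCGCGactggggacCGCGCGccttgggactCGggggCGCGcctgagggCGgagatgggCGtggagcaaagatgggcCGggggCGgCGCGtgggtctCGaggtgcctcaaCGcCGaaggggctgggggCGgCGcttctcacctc
Cdkn2a p16Ink4a promoter: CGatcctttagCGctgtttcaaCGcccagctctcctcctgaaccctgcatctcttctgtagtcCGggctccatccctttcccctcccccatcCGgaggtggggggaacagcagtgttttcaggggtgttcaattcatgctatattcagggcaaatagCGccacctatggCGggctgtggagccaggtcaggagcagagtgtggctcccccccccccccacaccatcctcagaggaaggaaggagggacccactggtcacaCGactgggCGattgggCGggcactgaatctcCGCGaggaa
Cdkn2b promoter: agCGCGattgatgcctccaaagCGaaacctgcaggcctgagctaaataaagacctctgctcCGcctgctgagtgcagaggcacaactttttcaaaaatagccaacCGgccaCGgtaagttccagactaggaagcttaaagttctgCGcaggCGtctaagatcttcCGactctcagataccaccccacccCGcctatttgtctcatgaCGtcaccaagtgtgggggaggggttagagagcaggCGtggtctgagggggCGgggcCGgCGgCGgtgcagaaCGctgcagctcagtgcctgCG
Cdkn1a upstream promoter: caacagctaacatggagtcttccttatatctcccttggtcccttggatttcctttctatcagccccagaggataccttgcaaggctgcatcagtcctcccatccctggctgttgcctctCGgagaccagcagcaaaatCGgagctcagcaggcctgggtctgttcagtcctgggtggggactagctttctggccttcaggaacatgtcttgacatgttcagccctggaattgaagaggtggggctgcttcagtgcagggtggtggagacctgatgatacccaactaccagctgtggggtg
Cdkn1a downstream promoter: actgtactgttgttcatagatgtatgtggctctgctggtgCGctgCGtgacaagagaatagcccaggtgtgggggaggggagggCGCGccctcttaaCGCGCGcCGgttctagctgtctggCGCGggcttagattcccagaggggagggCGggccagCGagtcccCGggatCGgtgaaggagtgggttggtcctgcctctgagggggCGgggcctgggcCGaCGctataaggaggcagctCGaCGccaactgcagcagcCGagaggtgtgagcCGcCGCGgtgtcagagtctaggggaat

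Cdkn1a, which encodes the CDK inhibitor p21, rose in the 5-AZA samples. Its level was 15.98 and 15.1 FPKM in untreated replicates 1 and 2 and 29.0 and 37.1 FPKM in 5-AZA replicates 101 and 102. Both 5-AZA values lay above both untreated values, and the 5-AZA replicates differed from each other more than the untreated ones did. The log2 fold change was 1.07 (SE 0.135, 95% interval 0.763 to 1.38, limma adjusted p = 0.000525), a 2.10-fold difference. Among the members tested Cdkn1a alone passed both limits, an adjusted p below 0.05 and a change over 2-fold. The interval includes a 2-fold change, and the call was lost at a log2 fold change of 0.96 when each sample was centred on its median and of 1.00 after quantile normalization. It was also lost without 5-AZA replicate 102, at 0.90 (limma adjusted p = 0.0521), and with no limit on low values (limma adjusted p = 0.0551). The muscle markers moved with the groups and were higher in replicate 102 than in 101, as Cdkn1a was, and their part in the result was not tested. The FPKM of all mRNA transcripts also summed higher in replicate 102 (361664) than in 101 (328410), beside 343955 and 334568 in untreated replicates 1 and 2. Among the other members tested, Cdkn1b, Cdkn2d, Rb1, Trp53 and Mdm2 were also higher in 102 than in 101, and Cdkn2c and Ccng1 were lower. Whether the difference in the sums accounts for that of Cdkn1a was not tested.

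**Figure D1:**
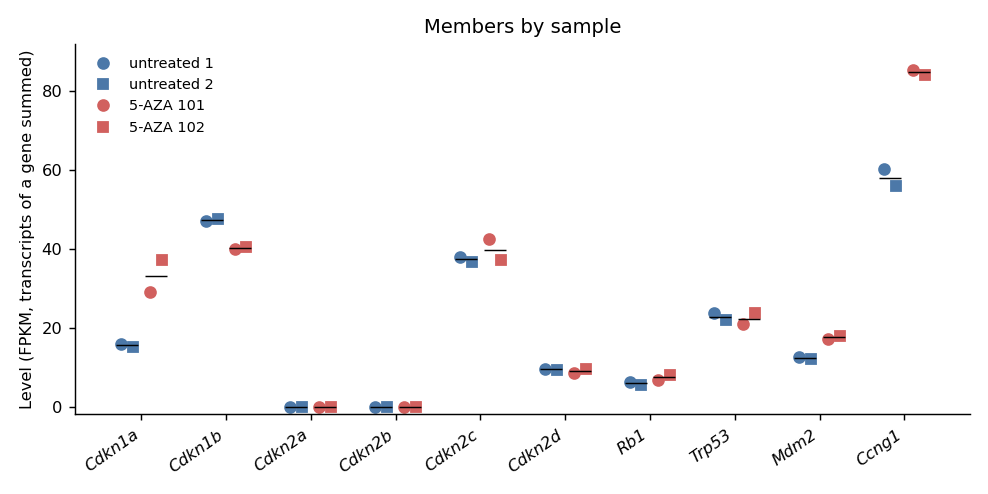
Level in FPKM (y axis) of the 10 genes (x axis) in each sample, with untreated samples in blue and 5-AZA samples in red, and a line at the mean of each group. The groups stand apart for Cdkn1a, Cdkn1b, Rb1, Mdm2 and Ccng1, they overlap for Cdkn2c, Cdkn2d and Trp53, and Cdkn2a and Cdkn2b are at 0 in all 4 samples.

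The 2 transcripts of Cdkn1a were listed singly. Variant 2 (NM_001111099.2) was at 2.72 and 2.84 FPKM in untreated and 9.93 and 7.85 FPKM in 5-AZA samples, and it rose by a log2 fold change of 1.63 (SE 0.217, limma adjusted p = 0.0262 over all transcripts). Variant 1 (NM_007669.5), the more abundant, was at 13.3, 12.3, 19.1 and 29.2 FPKM in untreated 1 and 2 and 5-AZA 101 and 102. Its log2 fold change was 0.88 (SE 0.223, limma adjusted p = 0.137), which was not called, although its groups did not overlap either. Variant 2 made up 17.04% and 18.75% of the Cdkn1a level in untreated and 34.21% and 21.17% in 5-AZA samples, so its share was above the untreated range in both 5-AZA samples but differed widely between them. FPKM of overlapping transcripts rest on how reads were split between them. Of 17 transcripts of the 10 genes tested, variant 2 of Cdkn1a was the 1 called higher, beside 2.1% of all transcripts, and 0 were called lower by limma, beside 0.262%. The call of variant 2 was lost in each of the fits that left out 1 sample, with limma adjusted p between 0.161 and 0.24.

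Cdkn1b encodes p27, the Cip/Kip inhibitor that accumulates in resting cells. It was at 47.0 and 47.6 FPKM in untreated and 40.05 and 40.5 FPKM in 5-AZA samples, with no overlap between the groups. The log2 fold change was -0.23 (SE 0.0939, 95% interval -0.447 to -0.0177), and it did not pass the test (limma adjusted p = 0.113). With each sample centred on its median it was -0.34 (limma adjusted p = 0.0281), and after quantile normalization -0.31 (limma adjusted p = 0.0295), both still short of 2-fold. With no limit on low values the limma adjusted p was 0.0484 at an unchanged fold change, and with centring or quantile normalization 4 members rather than 3 had an adjusted p below 0.05. Quantile normalization moved the median log2 fold change of all genes from 0.0472 to -0.121. The p27 level is also set by degradation of the protein, which these data do not show.

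Cdkn2a codes for 2 unrelated proteins from separate first exons, the CDK4 and CDK6 inhibitor p16Ink4a and the Mdm2 inhibitor p19Arf. Both transcripts, NM_001040654.1 for p16Ink4a and NM_009877.2 for p19Arf, were listed at 0 FPKM in untreated replicates 1 and 2 and in 5-AZA replicates 101 and 102. Cdkn2b, which encodes the INK4 inhibitor p15, was listed at 0 in the same 4 samples through its single transcript NM_007670.4. The 3 promoters shown for these genes thus had no listed product with or without 5-AZA, and no test was possible. DNA copy number, methylation and read counts were not given for these samples, so what a value of 0 stands for here cannot be told. Of all genes 20% were listed at 0 in all 4 samples, so 2 of 10 is near the background.

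Cdkn2a and Cdkn2b are neighbours on chromosome 4, spanning 36.6 kb in GRCm38 from the left end of Cdkn2a to the right end of Cdkn2b. Of 8 lncRNAs listed as overlapping that stretch, 6 were at 0 in all samples and the highest single value was 0.0165 FPKM. Those above 0, NONMMUT148099.1 and NONMMUT048057.2, run on to 244 kb from the left end of Cdkn2a. Their values do not show whether any of the RNA came from within the stretch. Mtap, which encodes the methylthioadenosine phosphorylase and ends 93.4 kb to the left of Cdkn2a, was at 88.6 and 80.6 FPKM in untreated and 76.2 and 72.9 FPKM in 5-AZA samples. To the right, the next gene with values, Dmrta1, lies 377 kb past Cdkn2b and reached at most 0.201 FPKM. Between the end of Mtap and the end of Dmrta1, 21 lncRNAs were listed, of which 11 were at 0 in all samples and the highest value was 0.292 FPKM. In the stretch on the other side, from Klhl9 to the end of Mtap, 20 of 47 lncRNAs reached 1 FPKM. Of all lncRNAs 51% were at 0 in all 4 samples. The share at 0 to the right of Mtap is thus near that of all lncRNAs. Below 0.1 FPKM in all samples were 18 of the 21 lncRNAs there and 17 of the 47 on the other side. The shares of all lncRNAs below 0.1 FPKM or at 1 FPKM are not given here. Mtap and Klhl9 were high in every sample, but of the 24 genes from Klhl9 to Mtap 17 were below 0.1 FPKM in all samples and 3 reached 1 FPKM.

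Cdkn2c, which encodes the INK4 inhibitor p18, was the INK4 gene with the highest level. It was at 38.0 and 36.7 FPKM in untreated and 42.5 and 37.2 FPKM in 5-AZA samples, and the groups overlapped. The log2 fold change was 0.09 (SE 0.107, 95% interval -0.153 to 0.334, limma adjusted p = 0.599), and its sign turned when samples were centred on their medians (-0.0165). Its main transcript NM_007671.3 was at 26.6, 26.8, 37.3 and 29.5 FPKM in untreated 1 and 2 and 5-AZA 101 and 102. That was 69.9% and 73.2% of the Cdkn2c level in untreated and 87.7% and 79.3% in 5-AZA samples, and neither Cdkn2c transcript was called. Cdkn2d, which encodes the INK4 inhibitor p19 (a protein distinct from p19Arf), was at 9.59 and 9.33 FPKM in untreated and 8.52 and 9.50 FPKM in 5-AZA samples. Its groups overlapped, and the log2 fold change was -0.07 (95% interval -0.37 to 0.229, limma adjusted p = 0.754). The main Cdkn2d transcript NM_009878.3 was at 7.50, 9.33, 6.42 and 8.85 FPKM in the same order of samples and was not called.

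The 7 CDK inhibitors of both families, with Cdkn1c added, summed to 110.7 and 108.7 FPKM in untreated and 121 and 126 FPKM in 5-AZA samples. Cdkn1a made up 14.5% and 13.9% of this sum in untreated and 23.99% and 29.4% in 5-AZA samples. The share of Cdkn1b was 42.5% and 43.8% in untreated and 33.1% and 32.1% in 5-AZA samples. For both genes the shares of the groups did not overlap. Shares of a sum depend on each other, so the higher Cdkn1a level by itself lowers the share of Cdkn1b. The level of Cdkn1b did not pass the test (limma adjusted p = 0.113). The 4 INK4 genes together were at 47.6, 46.0, 51.0 and 46.7 FPKM, with overlapping groups.

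**Figure D2:**
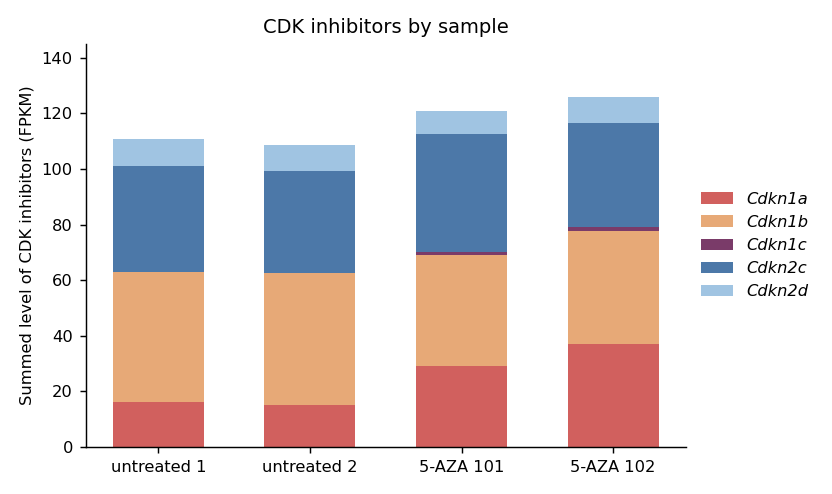
Summed level of the CDK inhibitors in FPKM (y axis) in each of the 4 samples (x axis), divided by gene. The red part, Cdkn1a, is larger in both 5-AZA samples than in both untreated samples, Cdkn1b in orange is smaller, and Cdkn2a and Cdkn2b, at 0, have no visible part.

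Rb1 encodes the pocket protein that these kinases phosphorylate. It was at 6.24 and 5.52 FPKM in untreated and 6.84 and 8.13 FPKM in 5-AZA samples. The groups did not overlap, but the log2 fold change of 0.34 (SE 0.156, 95% interval -0.0175 to 0.697) did not pass the test (limma adjusted p = 0.16). Its main transcript NM_009029.2 was at 5.91, 5.02, 6.52 and 8.10 FPKM and was not called.

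Trp53, the gene of p53, did not pass the test. It was at 23.8 and 21.9 FPKM in untreated and 20.9 and 23.7 FPKM in 5-AZA samples, with overlapping groups. The log2 fold change was -0.04 (SE 0.115), and the 95% interval from -0.301 to 0.224 bounds a difference on this scale in either direction (limma adjusted p = 0.852). Its main transcript NM_011640.3 made up 89.2% of the level in both untreated samples and 89.4% and 89.1% in the 5-AZA samples, and was at 21.2, 19.5, 18.7 and 21.1 FPKM. The activity of p53 is set largely by the stability of the protein, which was not measured here.

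Mdm2 and Ccng1 are transcriptional targets of p53, and both were higher in the 5-AZA samples by less than 2-fold. Mdm2, the ubiquitin ligase of p53, was at 12.6 and 12.0 FPKM in untreated and 17.2 and 18.02 FPKM in 5-AZA samples. Its log2 fold change was 0.51 (SE 0.114, 95% interval 0.252 to 0.773, limma adjusted p = 0.0113). Ccng1, the gene of cyclin G1, which recruits a phosphatase to Mdm2, was at 60.2 and 55.9 FPKM in untreated and 85.5 and 84.1 FPKM in 5-AZA samples. Its log2 fold change was 0.55 (SE 0.0945, 95% interval 0.33 to 0.762, limma adjusted p = 0.00314). For both genes the groups stood further apart than the replicates of either group. The main Mdm2 transcript NM_010786.4 was at 8.77, 7.94, 12.1 and 12.7 FPKM and the main Ccng1 transcript NM_009831.2 at 60.2, 55.9, 85.4 and 82.7 FPKM, and neither was called by limma over all transcripts (adjusted p = 0.158 and 0.0567). Without untreated replicate 2 or either 5-AZA replicate the limma adjusted p of Mdm2 was between 0.0851 and 0.105, and without either 5-AZA replicate that of Ccng1 was 0.086 and 0.0897. Without a trend in eBayes that of Mdm2 was 0.0525. The direction of both genes was the same in all 14 alternatives.

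**Figure D3:**
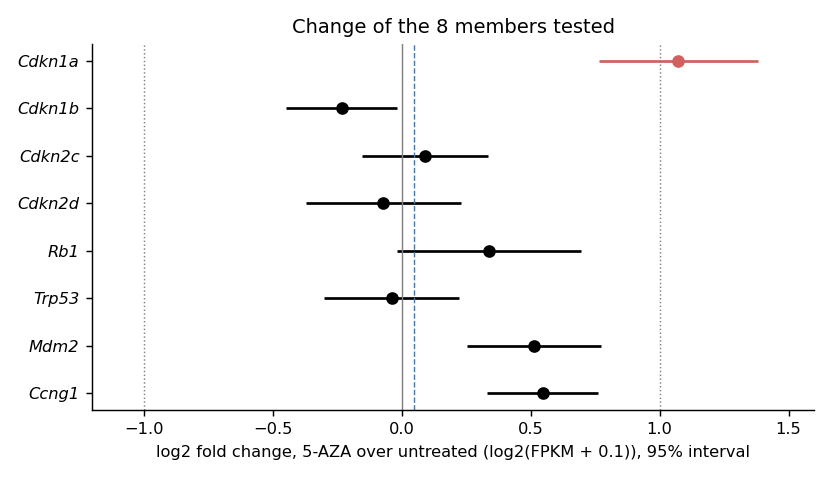
Log2 fold change, 5-AZA over untreated, with its 95% interval (x axis) of the 8 genes tested (y axis), the called gene in red, dotted lines at a 2-fold change and the dashed line at the median of all genes, 0.0472. Cdkn1a, Mdm2 and Ccng1 have intervals above 0, that of Cdkn1b lies just below 0, and those of the other 4 include 0.

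In order of level, Ccng1 stood first in every sample, and Rb1 stood last of the 8 genes above 0. Cdkn1b, Cdkn2c, Trp53, Cdkn1a, Mdm2 and Cdkn2d followed Ccng1 in that order in both untreated samples, and no 2 neighbours in that order overlapped. In both 5-AZA samples Cdkn1a was number 4 and Trp53 number 5. There the values of Cdkn1b and Cdkn2c overlapped, and those of Cdkn1a came up to 37.1 FPKM against at least 37.2 FPKM for Cdkn2c.

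Set against all 13199 genes tested, the counts are these. Of the 8 members tested 1 was called higher, beside 13.1% of all genes (1724), and 0 were called lower by limma, beside 1.32% (174). After quantile normalization the split over all genes was 1041 higher and 886 lower. With no limit on the fold, 3 members had an adjusted p below 0.05 and were higher, beside 18.6% of all genes, and 0 were lower, beside 5.93%. The groups did not overlap for 4 members that were higher, beside 36.8% of all genes, and for 1 that was lower, beside 25.4%. With 8 genes these shares are too coarse to set the members apart from the rest, and none is read as particular to them. No exact permutation test of 2 samples against 2 can give a two-sided p below 0.333.

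Other RNAs of the same loci were read as a description added after the values were seen. Within 20 kb of the members 94 lncRNAs were listed, of which 24 were at 0 in all samples and 36 were tested. Of these 0 were called by limma, beside 0.984% of all lncRNAs called higher and 0.154% called lower, and at an unadjusted p below 0.05 there were 0 higher and 1 lower. NONMMUT028986.2 matches the coordinates of Trp53cor1 (lincRNA-p21), a p53-dependent lncRNA beside Cdkn1a, at chr17:29057473-29078961 against 29057474 to 29079126 in RefSeq. It was at 0.545 and 0.450 FPKM in untreated and 0.315 and 0.712 FPKM in 5-AZA samples, with overlapping groups and a log2 fold change of -0.04 (limma adjusted p = 0.981). A second entry, NONMMUT101964.1, at chr17:29057474-29078962, has the same strand, length (2956 bases) and number of exons (2). It was at 0.0382 and 0.00356 FPKM in untreated and 0.118 and 0.0662 FPKM in 5-AZA samples, higher in both, and was too low to be tested. Values of the 2 entries rest on how reads were split between them, so the higher values of the second are not read as a rise. The highest lncRNA near a member, NONMMUT048682.2, lies over Cdkn2c and was at 3.60, 3.33, 2.78 and 3.43 FPKM, a log2 fold change of -0.16 (limma adjusted p = 0.78). Circular RNAs were listed for 1 of the 10 genes, Rb1. These 3 circRNAs had 4, 2 and 2 back-spliced reads in untreated replicate 1, untreated replicate 2 and 5-AZA replicate 102, each in 1 sample only. The reads were recovered from the steps of the RPM values, on the assumption that the smallest value of a sample stands for 2 reads. They were too few for a test.

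The pattern of Cdkn1a over the 4 samples was compared with that of 10799 genes with a mean of at least 1 FPKM. The nearest were Bok, a gene of the Bcl-2 family, Plekhb2, and Alas1, the first enzyme of haem synthesis. Their root mean square distances from Cdkn1a were 0.0172, 0.0248 and 0.0293 on the log2 scale, and the points are 4 samples in 2 groups. Bok was at 1.92, 1.79, 3.63 and 4.57 FPKM, Plekhb2 at 9.26, 8.56, 16.4 and 21.9 FPKM, and Alas1 at 5.81, 5.76, 11.1 and 13.6 FPKM.

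The other genes of the pathway were taken from lists. Of 32 p53 target genes tested in 3 lists, 5 were called higher (15.6%, beside 13.1% of all genes) and 0 lower by limma. With no fold limit 9 had an adjusted p below 0.05 and were higher (28.1%, beside 18.6%) and 0 were lower. A positive log2 fold change was found for 29 of 32, beside 7285 of all 13199 genes, with a median of 0.287 beside 0.0472 over all genes. The sign was counted on the values as reported only. For some of the 29, such as Btg2 and Sesn1, the groups overlapped. Among 11 genes of growth arrest and feedback 2 were called higher, Ptprv (0.010, 0.00474, 0.447 and 0.475 FPKM), a phosphatase gene, and Gadd45a (5.20, 4.04, 18.1 and 24.01 FPKM), a stress sensor. Plk2, the most abundant of that list, was at 37.2, 33.0, 45.0 and 49.97 FPKM (log2 fold change 0.44, limma adjusted p = 0.0201). The median of this list was 0.327, and it was -0.0285 after quantile normalization, where the median of all genes was -0.121. Among 11 genes of apoptosis 2 were called higher, Perp (1.19, 1.87, 12.98 and 18.7 FPKM), a gene also known from cell adhesion in epithelia, and Eda2r (3.35, 3.86, 7.48 and 7.63 FPKM), a death receptor, with a median of 0.336. Phlda3, the most abundant of them, was at 58.0, 48.8, 40.2 and 52.8 FPKM with overlapping groups. Among 10 genes of DNA repair and metabolism 1 was called higher, Trp53i11 (0, 0.0726, 1.10 and 1.11 FPKM), and the most abundant, Ddit4, was at 21.7, 21.7, 21.3 and 27.7 FPKM. Their median was 0.163, and -0.0495 after quantile normalization, also above the -0.121 of all genes. Of the 5 called targets 4 had a larger log2 fold change than Cdkn1a, a difference that was not tested, and most of the targets were not called.

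**Figure D4:**
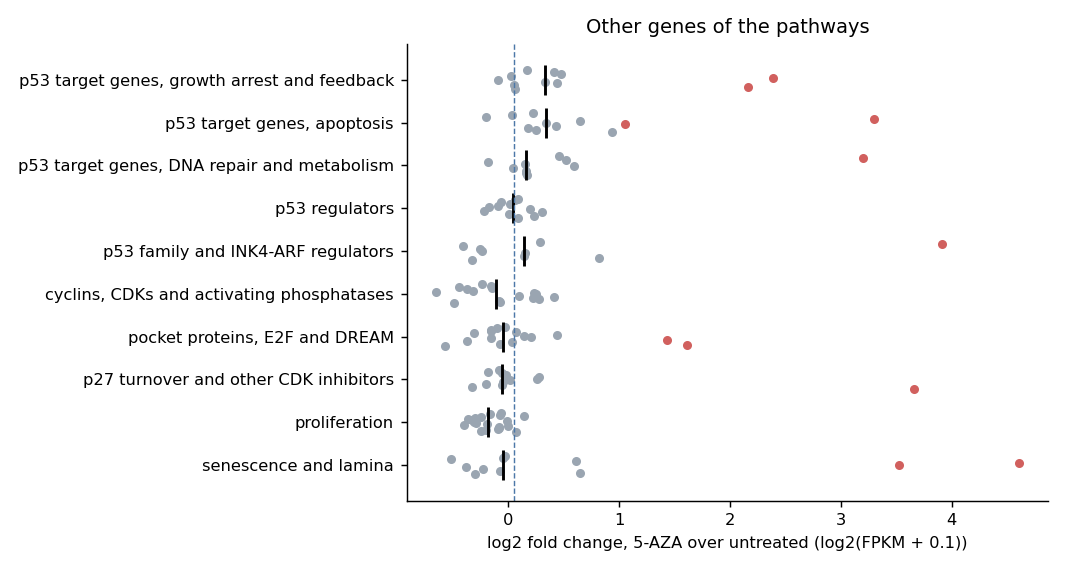
Log2 fold change, 5-AZA over untreated (x axis), of every gene tested in 10 lists (y axis), with called genes in red, a black bar at the median of each list and a dashed line at the median of all genes, 0.0472. The p53 target lists have their medians to the right of the dashed line, between 0.163 and 0.336 (below 0 for 2 of the 3 after quantile normalization), and the proliferation list to the left, at -0.182.

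Of 12 p53 regulators tested 0 were called by limma, and with no fold limit 0 had an adjusted p below 0.05 in either direction, with a median log2 fold change of 0.0377. Rfwd2, a ubiquitin ligase of p53 and the most abundant of them, was at 27.3, 25.5, 26.3 and 24.1 FPKM. Of 9 genes of the p53 family and of INK4-ARF regulation 1 was called higher (11.1%, beside 13.1% of all genes). It was Trp63, the gene of p63, at 0.390 and 0.271 FPKM in untreated and 5.81 and 6.89 FPKM in 5-AZA samples (log2 fold change 3.91, limma adjusted p = 8.64e-06). Trp73 was listed at 0 in all samples. Without the fold limit 2 of the 9 had an adjusted p below 0.05 and were higher (22.2%, beside 18.6% of all genes). They were Trp63 and Cbx7 (log2 fold change 0.81, limma adjusted p = 0.0408). On the same limit 1 was lower (11.1%, beside 5.93%), Bmi1 (log2 fold change -0.33, limma adjusted p = 0.0406). Cbx7 and Bmi1 were named after their values were seen, and no link to Cdkn2a or Cdkn2b was tested. The median of this list was 0.14, and Npm1, its most abundant gene, was at 243, 220, 200 and 188 FPKM.

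Of 16 cyclin, CDK and Cdc25 genes 0 were called by limma. With no fold limit 3 had an adjusted p below 0.05 and were lower (18.8%, beside 5.93% of all genes), Cdk4, Ccna2 and Cdc25b, of which the last 2 were named after their values were seen. Cdk4, the partner of D cyclins and target of INK4 proteins, was at 144 and 139 FPKM in untreated and 93.5 and 115 FPKM in 5-AZA samples, a log2 fold change of -0.45 (limma adjusted p = 0.0237). The median of this list was -0.115. Of 16 pocket protein, E2F and DREAM genes 2 were called higher (12.5%, beside 13.1% of all genes). They were E2f2 (0.276, 0.114, 0.701 and 0.838 FPKM) and the repressor E2f6 (4.99, 3.69, 11.6 and 12.0 FPKM). The most abundant of the list, Tfdp1, was at 30.5, 27.7, 26.3 and 27.7 FPKM, and the median of the list was -0.0499. With no fold limit 1 gene of this list had an adjusted p below 0.05 and was lower, E2f1 (5.92, 6.21, 4.02 and 4.06 FPKM, log2 fold change -0.57, limma adjusted p = 0.0253), an activating E2F named after its values were seen. Of 20 proliferation genes 0 were called by limma and 0 had an adjusted p below 0.05, beside 18.6% of all genes higher and 5.93% lower. A negative log2 fold change was found for 18, beside 5914 of all 13199 genes. All 20 were higher in untreated replicate 1 than in untreated replicate 2, so the count of 18 leans on replicate 1. For many of them the groups overlapped, as for Top2a (61.1, 45.8, 51.9 and 48.5 FPKM). The median of the 20 genes was -0.182, beside 0.0472 over all genes, and no fall of the list was tested. Pcna, the most abundant of them, was at 93.3, 83.3, 70.8 and 71.8 FPKM (limma adjusted p = 0.0556).

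Of 12 genes of p27 turnover and other CDK inhibitors 1 was called higher (8.33%, beside 13.1% of all genes), Cdkn1c, the third Cip/Kip inhibitor, p57. It was at 0.0159 and 0 FPKM in untreated and 0.902 and 1.74 FPKM in 5-AZA samples (log2 fold change 3.66, limma adjusted p = 0.00021), and its level stayed far below that of Cdkn1a and Cdkn1b. The ligase subunit gene Skp1a, the most abundant of that list, was at 271, 266, 239 and 234 FPKM, and the median was -0.0537. Of 11 senescence and lamina genes 2 were called higher (18.2%, beside 13.1% of all genes). Both encode secreted binding proteins of insulin-like growth factors, Igfbp5 (1.15, 0.605, 21.0 and 24.7 FPKM) and Igfbp3 (0.0642, 0.0125, 1.30 and 1.65 FPKM). With no fold limit 4 had an adjusted p below 0.05 and were higher (36.4%, beside 18.6% of all genes). The others were Igfbp7 and Hmga1 (limma adjusted p = 0.00261 and 0.0222), named after their values were seen. On the same limit 1 was lower (9.09%, beside 5.93%), Lmna. Lmna, also the most abundant of the list, was at 158, 139.6, 93.9 and 115 FPKM, a log2 fold change of -0.52 (limma adjusted p = 0.0151). The median of the list was -0.0446. All 14 skeletal muscle genes tested were called higher, with a median of 7.33, led by Mylpf, Acta1, Tnni2 and Tnnt3. The largest of these, Mylpf, a myosin light chain gene, was at 0.392, 0.376, 353 and 517 FPKM.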

How the data were processed

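RNA from 2 untreated and 2 5-AZA treated C3H10T1/2 samples was analysed. The authors made stranded libraries without ribosomal RNA, trimmed their reads and deposited FPKM values for mRNA and lncRNA transcripts and RPM values for circRNAs. The submitters' processing notes list mm9, Trimmomatic, HISAT2, Bowtie2 2.2.9 and eXpress 1.5.1 with no role or order. The coordinates in the files were checked against RefSeq genes of GRCm38.p6: 90.9% of 2356 host transcript positions of circRNAs lay within the named gene to 10 bases, and for 25.5% of 12731 RefSeq lncRNA genes a listed lncRNA began within 10 bases of the left end. Coordinates are therefore given as GRCm38. The number of samples limits the precision of every value, and FPKM give no depth.

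Values per gene are sums over transcripts. Log2(FPKM + 0.1) was fitted with limma 3.58.1 (lmFit, eBayes with trend) in R 4.3.3 (data.table version 1.17.8), for features whose mean reached 0.1 FPKM, with Benjamini-Hochberg adjustment over all features of a kind. A feature was called where the adjusted p was below 0.05 and the change over 2-fold. A fold change on this scale understates that of low genes. The smallest value above 0, 0.0213 RPM, was added to circRNA values, and those found in 2 or more samples entered the fit. The fit was tested on simulated data. Of 1360 circRNAs tested 0 were called by limma (91 higher and 160 lower at an unadjusted p below 0.05).

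The members and all lists were chosen with earlier results of these data known. The 11 lists were p53 target genes (3 lists), p53 regulators, p53 family and INK4-ARF regulators, cyclins and CDKs, pocket proteins, p27 turnover, proliferation, senescence and skeletal muscle. Named were all members, every Cdkn2a transcript, the transcript with the highest mean and every called transcript of the others, and of each list up to 4 called genes of largest change and the gene with the highest mean. The 3 genes nearest in pattern to the member of largest change were added. Older symbols were matched through RefSeq synonyms (Rfwd2 for Cop1, Skp1a for Skp1, Trp53i11 for Tp53i11, Tmem8c for Mymk). Other pseudocounts, limits on low values, scalings, curated transcripts alone, eBayes without trend and leaving out each sample were tried. Lists were described by counts, with no test. A further marker is not reported here.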

Additional observations from a re-analysis of the deposited data

How the results depend on the processing

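The fits rest on 2 samples a group and on FPKM without read counts, so a gene that was not called has not been shown to be unchanged. No paired analysis was possible because the groups share no replicate number. A fit without 1 sample leaves a lone sample in a group, which is assumed to vary like the others. The lncRNA result and its alternatives were chosen after seeing the data. Where a value moved, the cause was not tested, except that the stricter limit tests fewer genes and a fit without 1 sample has fewer samples. Over genes, with the values as reported 1724 higher and 174 lower, a pseudocount of 1 FPKM gave 875 and 86, a mean of at least 1 FPKM 845 higher, no limit on low values 83 lower, quantile normalization 1041 and 886, and no fold limit 783 lower. Without 1 sample each, 785 to 1616 were higher and 50 to 181 lower. The count of members called was 1, and it was 0 with no limit on low values, with centring and with quantile normalization, 3 with no fold limit, and 0 to 1 without 1 sample (0 without 5-AZA replicate 102). Members with an adjusted p below 0.05 numbered 3, and 0 to 3 without 1 sample, with 0 without 5-AZA replicate 102 and 1 without 101. Over transcripts (745 higher, 93 lower, 1 of the members), no limit on low values gave 0, 0 and 0, a pseudocount of 0.01 FPKM 60 lower, centring 164 lower, and eBayes without trend 51 lower and 0 of the members. Without 1 sample 0 to 56 were higher, 0 to 1 lower and 0 of the members were called. Over lncRNAs (237 higher, 37 lower), pseudocounts of 1 and 0.01 FPKM gave 22 and 17 lower, and no limit on low values, as well as each fit without 1 sample, gave 0 higher and 0 lower. Over all circRNAs 0 were called as reported, 8 when those detected in all 4 samples were tested and 3 when those detected in any sample were.

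The sign turned for values near 0. Without 1 sample the log2 fold change of Trp53 was -0.129 to 0.0514, of Cdkn2c -0.0051 to 0.186 and of Cdkn2d -0.148 to 0.00683. That of NM_011640.3 was -0.124 to 0.0506, of XM_006533157.3 (Trp53) -1.25 to 0.0101, of NM_009878.3 -0.375 to 0.0807 and of XM_006509968.1 (Cdkn2d) -0.768 to 3.68. With centring Cdkn2c was at -0.0165, NM_001127233.1 (Trp53) at -0.0184 and NONMMUT048682.2 at 0.0056, with quantile normalization NM_001127233.1 was at -0.00561, and with division by the sample sum NONMMUT007562.2, a lncRNA over Mdm2, was at -0.0185. Cdkn1a kept its direction in 14 alternatives, between 0.896 and 1.25.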
